A study of Arabidopsis thaliana with 22 samples.

Results

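Alpha-expansins (EXPA) are small cell wall proteins that loosen the wall at acidic pH, so that a plant cell under turgor can enlarge. They are encoded by a large gene family in Arabidopsis thaliana, and different members serve different organs, from root hairs to germinating seeds and growing leaves. H3K4me3 is a histone mark found near the start of transcribed genes, while H3K27me3 is laid down by Polycomb complexes over genes held silent in a tissue. A gene that is used in some tissues only may carry the first mark in one place and the second in another.

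Of the 26 alpha-expansin genes, 10 are described here, out of 27444 protein-coding genes of the nuclear chromosomes. They were EXPA1 (AT1G69530), EXPA2 (AT5G05290), EXPA3 (AT2G37640), EXPA4 (AT2G39700), EXPA5 (AT3G29030), EXPA6 (AT2G28950), EXPA8 (AT2G40610), EXPA9 (AT5G02260), EXPA10 (AT1G26770) and EXPA15 (AT2G03090). The 10 loci were chosen by their islands and island reads over the gene body and 1 kb either side in these same libraries, with results already known. Their levels and calls below are therefore a description, and no test of the group is given. All 10 were found in the gene table, and 9 of the 10 had H3K4me3 islands on the gene body in at least 1 library.

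ChIP-seq of both marks was done in 4 stages of the accession Landsberg erecta, with 2 biological replicates per stage and mark and 16 libraries in all. Leaf samples were rosette leaves of wild-type plants. Apex t0 samples were untreated inflorescence apices of ap1-1 cal-1 double mutants carrying 35S::AP1:GR, and apex t2 samples were apices of that genotype 2 days after 10 µM dexamethasone. Inflorescence samples were wild-type inflorescences without flowers older than stage 12. The ap1 cal apices are masses of inflorescence meristems, and in them a fusion of AP1 to the glucocorticoid receptor, driven by the broadly active 35S promoter, enters the nucleus when dexamethasone is given. Leaf and inflorescence thus differ from the apices in genotype as well as in tissue. Per the labels, each ChIP also used 15 µg of chromatin from the apices and 10 µg from wild-type tissue. In the deposited tables, leaf shares its control values with inflorescence, and apex t0 with apex t2, within a replicate and mark. The input samples in the labels are of apex t2 and inflorescence only, with none of leaf or apex t0. Tissue, genotype, chromatin amount and control cannot be told apart where the apices are set against leaf or inflorescence.

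The deposited data are islands, stretches of windows enriched over a control, each with its read count. The H3K4me3 libraries held between 6635471 and 23673881 island reads and the H3K27me3 libraries between 3779918 and 19379225, with fewer reads in replicate 1 than in replicate 2 at each stage for both marks. A gene's level is given in RPM, the island reads falling on the gene body per 1000000 island reads on tested genes, after scaling between libraries. A level of 0 means that no island was called, not that no mark was present. Of 3 meristem genes (STM, KNAT1 and KNAT2), none had an H3K4me3 island in leaf and all 3 had one in every apex and inflorescence library, with summed levels of 269 to 309 RPM in the apices and 93.1 to 174 RPM in inflorescence. Of 3 leaf genes (RBCS1A, CAB1 and RCA), all 3 were marked in every library, at summed levels of 359 to 485 RPM in leaf, 202 to 235 RPM in the apices and 296 to 380 RPM in inflorescence. In such bulk tissue, fewer cells carrying a mark and less of the mark per cell cannot be told apart, and the part of tissue makeup in the values below was not tested.

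**Figure D1:**
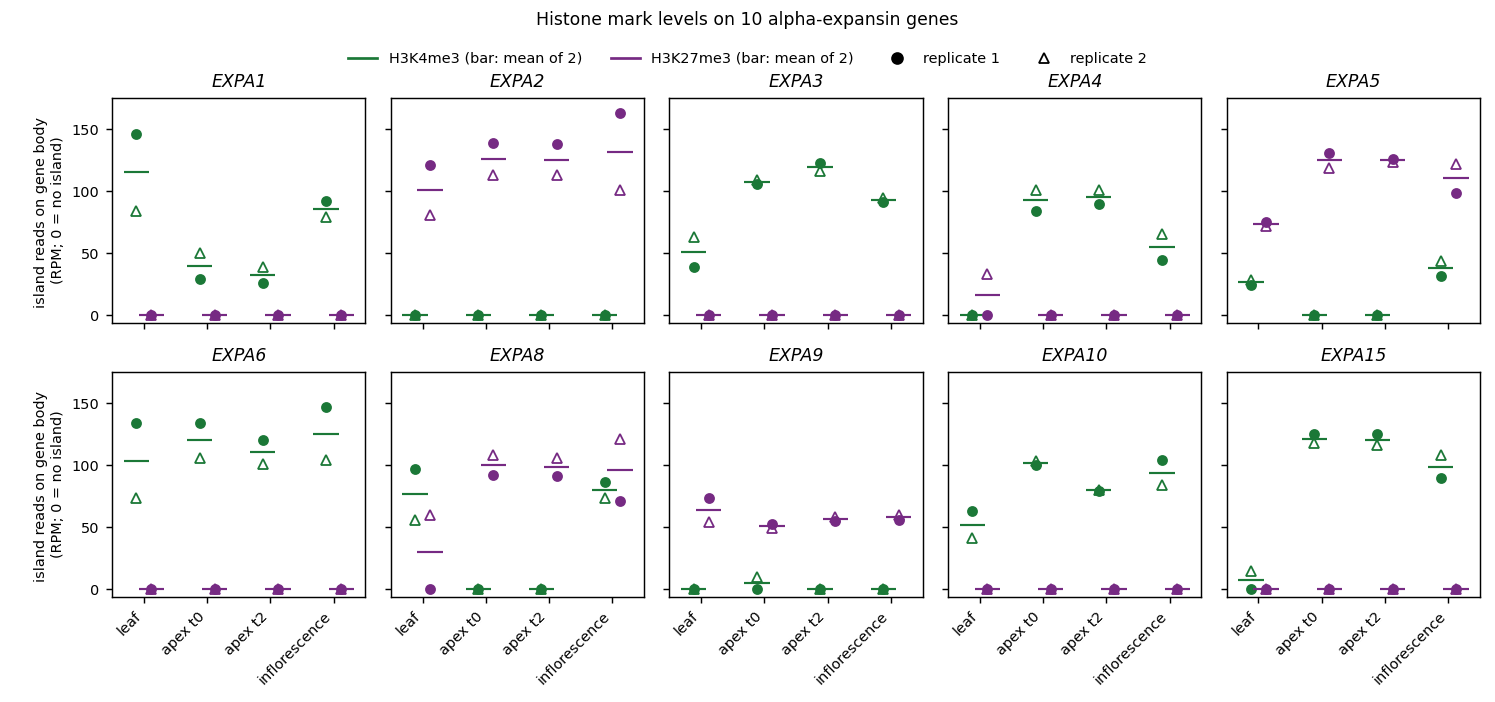
H3K4me3 (green) and H3K27me3 (purple) island reads on the gene body, in RPM, for each of the 10 alpha-expansin genes at 4 stages; filled circles are replicate 1, open triangles are replicate 2, short bars are the mean of 2, and 0 means no island. EXPA4 and EXPA15 are near or at 0 for H3K4me3 in leaf and above 80 RPM in each apex library. EXPA5 and EXPA8 are at or near 0 for H3K4me3 in the apices, and EXPA2 and EXPA9 carry mainly H3K27me3.

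H3K4me3 was higher at apex t0 than in leaf on EXPA3, EXPA4 and EXPA10, and the EXPA15 libraries lay in the same order without passing the test. It was lower there on EXPA5 and EXPA8, and the EXPA1 libraries lay in that order without passing the test. The libraries of EXPA6 overlapped throughout, and EXPA2 and EXPA9 were covered by H3K27me3 at every stage.

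EXPA4 (AT2G39700) had no H3K4me3 island in either leaf library. Its H3K4me3 level was 84.3 and 101 RPM at apex t0, 90 and 101 RPM at apex t2, and 44.7 and 65.4 RPM in inflorescence. All 4 apex libraries were above both inflorescence libraries, and the leaf libraries had none. In apex t0 replicate 2 the island spanned chr2:16544001-16545800 (TAIR10), held 2141 reads and had a fold of 5.01 over control in the authors' deposited table. The island of inflorescence replicate 2, chr2:16544201-16545600, held 1058 reads at a deposited fold of 2.6. The difference between inflorescence and apex t2 was -0.81 ± 0.32 (log2, SE, n = 2 per stage) and was not called. EXPA4 also had an H3K27me3 island in leaf replicate 2 alone, at 33 RPM, which began over the neighbouring gene AT2G39690 and was absent in every other library.

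EXPA15 (AT2G03090) behaved similarly, with no H3K4me3 island in leaf replicate 1 and 14.4 RPM in leaf replicate 2. Its level was 125 and 118 RPM at apex t0, 125 and 116 RPM at apex t2, and 89.4 and 108 RPM in inflorescence. Every library outside leaf lay far above the leaf pair. The leaf replicate 2 island was 600 bp wide with 304 reads, against 2000 bp and 2605 reads for the island of apex t0 replicate 2, chr2:916801-918800. Per kb of gene body EXPA15 had 65.2 ± 2.58 RPM at apex t0 (SD, n = 2), the highest H3K4me3 density of the 10 members there and at percentile 97.8 of all tested genes. Apex t0 differed from leaf by 4.96 ± 1.14 (log2, SE), a value that depends on the pseudocount, and was not called. With the replicate number as a block the same difference of 4.96 passed the threshold. It also passed with a pseudocount of 5 RPM (3.68), with 1 kb either side (4.75), with islands of fold 2 or more (6.98), and without leaf replicate 1 (3.02) or leaf replicate 2 (6.94).

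EXPA3 (AT2G37640) was marked by H3K4me3 in all 8 libraries. Its level was 39.3 and 63.3 RPM in leaf, 106 and 109 RPM at apex t0, 123 and 116 RPM at apex t2, and 91.2 and 94.7 RPM in inflorescence. The stages did not overlap, in the order leaf, inflorescence, apex t0 and apex t2, though apex t2 differed from apex t0 by only 0.15 ± 0.22 (log2, SE). Apex t0 was higher than leaf by 1.09 ± 0.22 (log2, SE), a 2.13-fold higher level. The island covered 38.2% and 76.4% of the gene body in leaf, against 76.4% and 84.1% at apex t0.

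EXPA10 (AT1G26770), a gene with a known role in leaf growth and pedicel abscission, had H3K4me3 levels of 62.7 and 41 RPM in leaf. It reached 100 and 103 RPM at apex t0, 79.6 and 80 RPM at apex t2, and 104 and 84 RPM in inflorescence. The inflorescence pair overlapped that of apex t0, and all 6 libraries outside leaf were above the leaf pair. Apex t0 was higher than leaf by 0.99 ± 0.21 (log2, SE), or 1.98-fold. The change of EXPA10 from apex t0 to apex t2 was -0.34 ± 0.21 on the same scale and was not called. No H3K27me3 island touched its body, and small ones lay within 1 kb of it in apex t0 replicate 2 and inflorescence replicate 2 only.

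EXPA1 (AT1G69530), whose product acts in the guard cell wall during stomatal opening, showed the opposite order. Its H3K4me3 level was 146 and 84.5 RPM in leaf, 29.6 and 50.5 RPM at apex t0, 26.1 and 38.6 RPM at apex t2, and 92.4 and 79 RPM in inflorescence. Leaf and inflorescence overlapped, as did the apices with each other, and all 4 apex libraries lay below the other 4. Apex t0 differed from leaf by -1.50 ± 0.36 (log2, SE) and inflorescence from apex t2 by 1.40 ± 0.36. Neither was called, and without leaf replicate 2 the first passed the threshold, at -1.89. With islands of fold 2 or more the differences became -3.98 and 6.47, neither called, since 3 of the 4 apex islands had deposited folds between 1.52 and 1.7. The EXPA1 island narrowed as well, from 2000 bp with 1044 reads in leaf replicate 1, chr1:26141801-26143800, to 1200 bp with 304 reads in apex t0 replicate 1, chr1:26142001-26143200. EXPA1 had no H3K27me3 island in any library.

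EXPA6 (AT2G28950) had H3K4me3 levels of 134 and 73.5 RPM in leaf, 134 and 106 RPM at apex t0, 120 and 101 RPM at apex t2, and 147 and 104 RPM in inflorescence. The 4 stages overlapped, and replicate 1 was the higher at each. Apex t0 differed from leaf by 0.26 ± 0.33 (log2, SE), which was not called and is within the spread of the leaf replicates. Its island kept nearly the same edges in all 8 libraries, 1600 or 1800 bp wide.

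EXPA5 (AT3G29030) carried both marks. Its H3K4me3 level was 24.8 and 28.3 RPM in leaf and 31.8 and 44 RPM in inflorescence, with no island in any apex library. H3K27me3 was present at every stage, at 75.5 and 72.1 RPM in leaf, 131 and 119 RPM at apex t0, 126 and 124 RPM at apex t2, and 98.8 and 122 RPM in inflorescence. The stages with an H3K4me3 island thus had the lower mean H3K27me3 levels, and one inflorescence library overlapped the apex range. H3K27me3 was higher at apex t0 than in leaf by 0.75 ± 0.14 (log2, SE), or 1.69-fold.

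On EXPA5 the H3K4me3 and H3K27me3 islands overlapped over 1000 bp of the body in both leaf libraries and over 1000 and 1200 bp in inflorescence. In leaf replicate 2 the H3K4me3 island was chr3:11012201-11013200 and the H3K27me3 island chr3:11012201-11013800. The leaf and inflorescence values rest in part on shallow libraries in replicate 1. There the H3K4me3 island held 154 reads in leaf and 250 in inflorescence, and the H3K27me3 island 216 and 223. Overlap in mixed tissue does not show that both marks sat on the same chromatin.

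EXPA8 (AT2G40610) had H3K4me3 levels of 97.3 and 56.2 RPM in leaf and 86.1 and 73.3 RPM in inflorescence. In the apices its body had no H3K4me3 island apart from a 10 bp edge in apex t0 replicate 2, at 0.592 RPM. Its H3K27me3 level was 60.1 RPM in leaf replicate 2 with no island in replicate 1, 92.5 and 108 RPM at apex t0, 91.6 and 106 RPM at apex t2, and 70.9 and 121 RPM in inflorescence. H3K4me3 therefore separated the apices from the other stages, while H3K27me3 in inflorescence overlapped the apex range. The leaf library without an H3K27me3 island had 4995796 island reads against 18622099 in the other, and the part of depth in this difference was not tested. For H3K27me3, apex t0 differed from leaf by 3.69 ± 1.85 (log2, SE), which depends on the pseudocount and was not called. It was called at 6.63 without leaf replicate 2 and at 6.72 with islands of fold 2 or more, and was 0.71 and not called without leaf replicate 1.

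The H3K4me3 on EXPA8 was part of an island shared with AT2G40600, a gene 78 bp away. In leaf replicate 1 the island ran from chr2:16947801-16950600 across both genes with 934 reads. In apex t0 replicate 1 it stopped short of EXPA8, at chr2:16947801-16948600, with 658 reads. Because reads were divided by length within an island, reads of AT2G40600 enter the EXPA8 level in leaf and inflorescence, and the level there is uncertain. With 1 kb either side counted, apex t0 differed from leaf by -0.91 (log2) and was not called. The H3K27me3 island in the 4 apex libraries began within EXPA8, was 4200 bp wide and ran away from AT2G40600, chr2:16949001-16953200, against 1400 bp in leaf replicate 2. Both marks overlapped over 1400 bp of EXPA8 in leaf replicate 2 and in both inflorescence libraries.

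**Figure D2:**
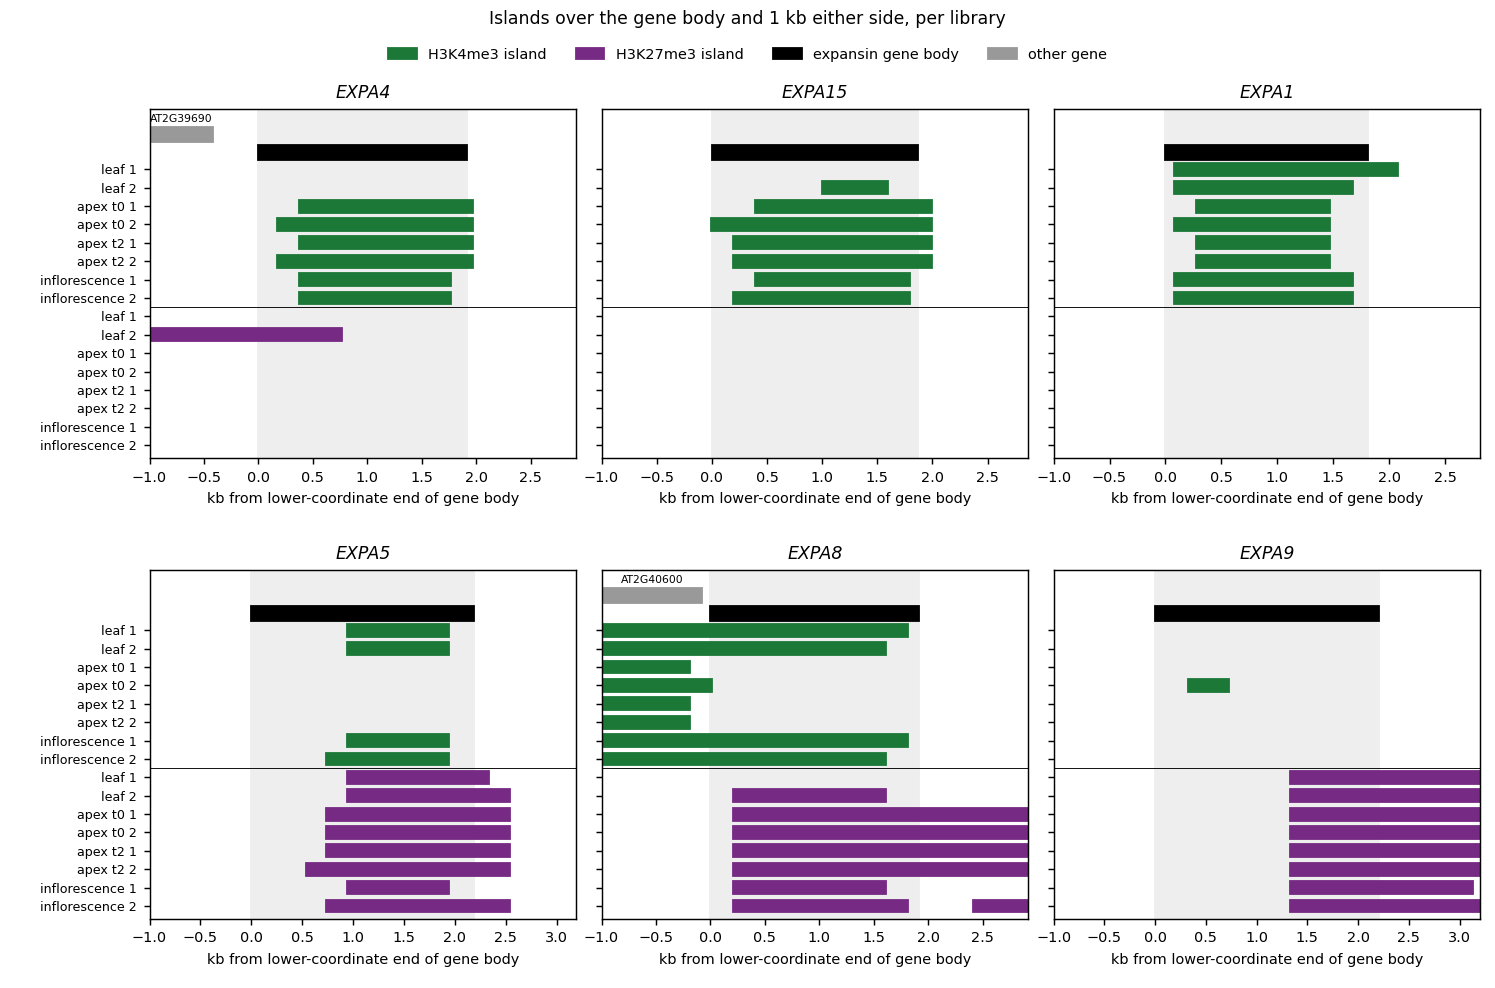
Islands of H3K4me3 (green) and H3K27me3 (purple) in each library over 6 members; the x axis is the distance in kb from the lower-coordinate end of the gene body (black bar, grey shading), other genes within 1 kb are grey bars, and rows are stage and replicate. The EXPA8 H3K4me3 island reaches from AT2G40600 across the gene in leaf and inflorescence and stops before or at its edge in the 4 apex libraries.

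EXPA2 (AT5G05290), a gene linked to seed germination, was covered by H3K27me3 over 100% of its body in all 8 libraries. The level was 121 and 81.1 RPM in leaf, 139 and 113 RPM at apex t0, 138 and 113 RPM at apex t2, and 163 and 101 RPM in inflorescence. Replicate 1 was the higher at each stage, and the stages overlapped. The largest difference, inflorescence against leaf, was 0.37 ± 0.31 (log2, SE) and was not called. EXPA2 had no H3K4me3 island on its body in any library. Within 1 kb of the body, H3K4me3 islands touched the next gene, AT5G05300, in both leaf libraries and in apex t0 replicate 2. The EXPA2 body overlaps AT5G05300 by 61 bp, and the H3K27me3 island lay over both genes in all 8 libraries. The H3K27me3 level thus rests on an island shared by the pair.

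EXPA9 (AT5G02260) had H3K27me3 levels of 73.6 and 54.5 RPM in leaf, 52.6 and 49.6 RPM at apex t0, 55.3 and 58.3 RPM at apex t2, and 55.8 and 60 RPM in inflorescence. Apart from leaf replicate 1 the libraries lay close together, and apex t0 differed from leaf by -0.30 ± 0.20 (log2, SE), which was not called. The island covered 39.7% of the body, at its higher-coordinate end, and ran beyond it to chr5:464401-466400 in 5 of the 8 libraries. At the other end, a 400 bp H3K4me3 island with 201 reads was called in apex t0 replicate 2 only. EXPA9 and EXPA2 both kept H3K27me3 throughout. Per kb of body EXPA9 had 23.2 ± 0.951 RPM at apex t0 and EXPA2 103 ± 14.8 (SD, n = 2), with 39.7% and 100% of the body covered. The gap was smaller per kb covered by the island, at 60.3 and 56.9 RPM for EXPA9 and 114 and 92.7 RPM for EXPA2.

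Levels were compared between members per kb of gene body. In H3K4me3 at apex t0, EXPA15 was followed by EXPA10 at 54 ± 1.03 RPM per kb, EXPA6 at 48.9 ± 8.16, EXPA4 at 48.4 ± 6.22, EXPA3 at 41.1 ± 0.623 and EXPA1 at 22.1 ± 8.18 (SD, n = 2). The replicates of EXPA10, EXPA6 and EXPA4 overlapped their neighbours in this order, and those of EXPA15, EXPA3 and EXPA1 did not. In leaf the order began with EXPA1 at 63.6 ± 24.1 RPM per kb, then EXPA6 at 42.3 ± 17.5, EXPA8 at 40.1 ± 15.2, EXPA10 at 27.5 ± 8.14, EXPA3 at 19.6 ± 6.49 and EXPA5 at 12.1 ± 1.14. Each neighbouring pair in the leaf order overlapped, except that both EXPA5 replicates were below those of EXPA3. The place of EXPA8 is uncertain, since its leaf island was shared with AT2G40600. EXPA1 was first in leaf and last of the 6 members marked in both apex t0 replicates.

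Each stage was compared with limma across all tested genes at a Benjamini-Hochberg adjusted p of 0.05, with 17588 genes tested for H3K4me3 and 8623 for H3K27me3. For H3K4me3, 8 members passed the filter of an island over 200 bp or more of the body in both replicates of a stage, and EXPA2 and EXPA9 did not. From leaf to apex t0, 5 of the 8 were called, where 8.05% of all tested genes were. With the replicate number as a block 6 were called, EXPA15 being added, beside 13.6% of all genes. EXPA3, EXPA4 and EXPA10 were higher and EXPA5 and EXPA8 lower. The EXPA3 and EXPA10 calls ended when any 1 apex or inflorescence library was left out, and those of EXPA5 and EXPA8 without apex t0 replicate 1, among others for EXPA5. Without apex t0 replicate 1, EXPA4 was the 1 member still called, beside 0.53% of all genes, and without leaf replicate 2 there were 7, beside 17.1%. The median difference of the 8 was 0.62 (log2), against -0.01 over all tested genes. Since these values chose the genes, nothing is read from the share.

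From apex t0 to apex t2, the dexamethasone step, 0 of the 8 members were called for H3K4me3 and 0% of all genes. At an unadjusted p under 0.05 there were 0 members and 156 genes. The members' differences ranged from -0.34 to 0.15 (log2), the ends being EXPA10 and EXPA3 among genes with islands in all 4 libraries. From apex t2 to inflorescence 2 of 8 were called, EXPA5 and EXPA8, both higher, where 1.13% of all genes were called. With the replicate number as a block only 1 of them was called, EXPA8, and leaving out any 1 library left 0 or 1. From leaf to inflorescence, EXPA4 was the 1 member called and was higher, beside 4.06% of all genes.

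For H3K27me3 4 members passed the filter, EXPA2, EXPA5, EXPA8 and EXPA9. From leaf to apex t0, EXPA5 was the 1 called, where 9.57% of all genes were. This call ended when any 1 leaf or apex library was left out, at log2 differences of 0.67 to 0.84 over all alternatives. Without leaf replicate 1 the call moved to EXPA4, which passed the filter only through leaf replicate 2. Without leaf replicate 2 it moved to EXPA8 and EXPA9. The share of all genes called rose in both of these fits, which leave 1 leaf library, so nothing is read from them about the members. From apex t0 to apex t2 none of the 4 was called, beside 0% of all genes, and their differences ranged from -0.01 to 0.15 (log2). At an unadjusted p under 0.05 there were 0 members and 36 genes, or 0.417%, so here too a missing call does not show an unchanged mark. From apex t2 to inflorescence, 0 of 4 were called beside 3.29% of all genes, and 0 had an unadjusted p under 0.05, beside 8.79% of all genes. From leaf to inflorescence 0 of 4 were called beside 5.15%, and 1 had an unadjusted p under 0.05, beside 11.8% of all genes. The other 6 members had an H3K27me3 island over the body in at most 1 library.

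By library, the members carried H3K4me3 alone in 5 or 6 cases of 10, H3K27me3 alone in 2 to 4 and both in 0 to 2. Over all genes these shares were 52.4% to 55.7%, 21.4% to 24.4% and 5.55% to 9.19%, so the first 2 counts lay near those of all genes. In inflorescence both marks lay on 2 of the 10 members in each replicate, EXPA5 and EXPA8, while 5.84% and 7.58% of all genes carried both. At apex t2 no member carried both, against 6.93% and 7.92% of all genes.

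The genes whose H3K4me3 followed EXPA4 most closely over the 8 libraries, by Pearson's r of log2 levels among 7722 genes, were GRF5 (0.9999), ANT (0.9998) and ABCG14 (0.9997). GRF5 and ANT encode transcription factors that promote organ growth, and ABCG14 a cytokinin transporter. GRF5 had no island in leaf, 127 and 138 RPM at apex t0, and 60.5 and 90 RPM in inflorescence. For H3K27me3 on EXPA8 they were ABCI9, FAF3 and IGMT1 among 3139 genes, at 0.9995, 0.9989 and 0.9983. These values are a description, since the points share libraries and depth, and the leaf libraries with no island set most of the range.

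The other alpha-expansins were mostly without H3K4me3. Of 16, 15 were found in the gene table, and 11 of them had an island covering 200 bp or more in no library. Against this, 1 of the 10 members, EXPA2, had no such island on its body in any library, a contrast that the choice of members fixes. EXPA20 was the 1 of 4 tested that was called from leaf to apex t0, beside 8.05% of all tested genes. It was higher at apex t0 than in leaf by 1.70 ± 0.23 (log2, SE). Its level of 76.1 and 63.2 RPM at apex t0 stood against 17.4 and 24.6 RPM in leaf. H3K27me3 covered 10 of the 15 in both replicates of every stage, among them the root hair genes EXPA7 and EXPA18. Of all 27444 genes, 8623 passed the looser filter of both replicates of a stage. EXPA7 lay between 142 and 178 RPM in all 8 libraries. For H3K27me3 from leaf to apex t0, EXPA14 was the 1 called of 10 tested, beside 9.57% of all tested genes. Its level at apex t0 was 40.6 and 38.3 RPM, against 202 and 194 RPM in leaf. In inflorescence EXPA14 had 90.4 and 211 RPM, and its difference from leaf there was not called. EXPA21 to EXPA26 lie side by side and shared islands of up to 3 genes each, so their values are not independent, and reads between such close copies may be split.

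**Figure D3:**
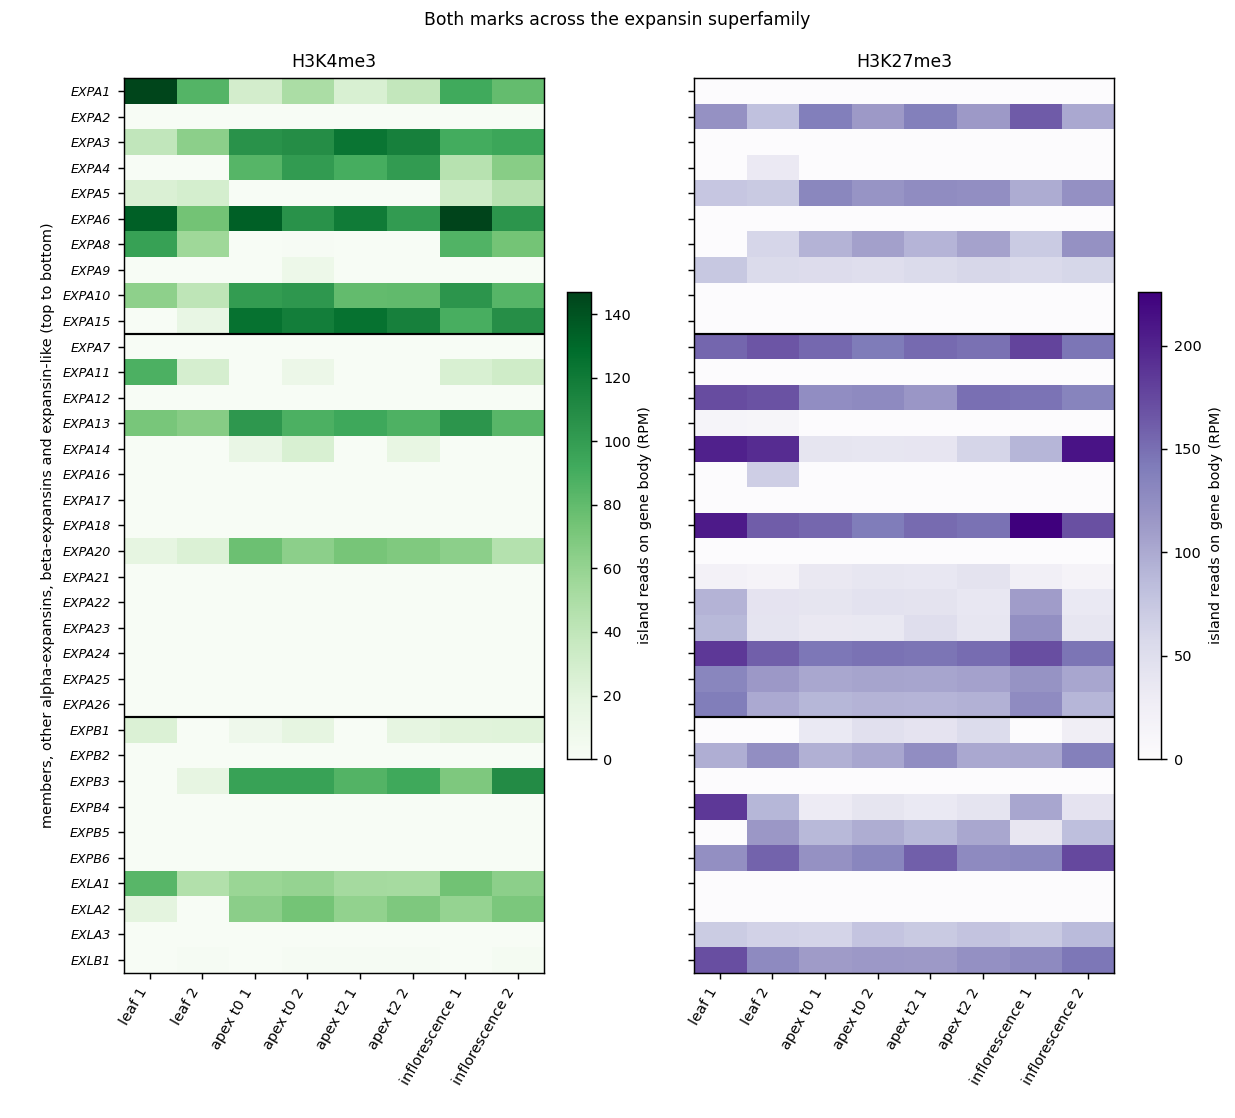
H3K4me3 (left) and H3K27me3 (right) island reads on the gene body, in RPM by colour, for the 10 members, 15 other alpha-expansins and 10 beta-expansin and expansin-like genes (rows, separated by lines) in each library (columns). H3K4me3 fills most rows of the members, and H3K27me3 most rows of the other alpha-expansins.

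Other genes of wall loosening were compared from lists of whole families. Of 10 beta-expansin and expansin-like genes, 4 were tested for H3K4me3 and 7 for H3K27me3, and 0 were called by limma in any comparison. From leaf to apex t0, 2 of the 4 and 2 of the 7 had an unadjusted p under 0.05, beside 23.5% and 22.5% of all tested genes. XTH genes encode enzymes that cut and rejoin xyloglucan, and 10 of 30 were tested for H3K4me3. From leaf to apex t0, XTH9 was higher by 2.55 ± 0.18 (log2, SE), XTH16 gained an island and XTH24 lost one. These were the 3 called of the 10, beside 8.05% of all tested genes. For H3K27me3, 20 XTH genes were tested and 4 were called from leaf to apex t0, beside 9.57% of all tested genes. XTH33 and XTH8 were higher and XTH1 and XTH18 lower at apex t0 than in leaf. XTH33 had no H3K27me3 island in leaf and 45.1 and 51 RPM at apex t0, and XTH1 went from 112 and 89.3 RPM in leaf to 18.3 and 18.4 RPM. The plasma membrane proton pumps (AHA) acidify the wall in which expansins act. Of 11 pumps 5 were tested for H3K4me3, and AHA2 was the 1 called from leaf to apex t0, beside 8.05% of all tested genes. AHA2 was lower at apex t0 than in leaf by -0.86 ± 0.13 (log2, SE), with 47.7 and 60.3 RPM against 94.3 and 102 RPM.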

How the data were processed

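The submitters' processing notes name SICER 1.1 (an island caller), the aligner BWA 0.6.2-r126, and bedtools 2.17.0-97, Picard 1.93, SAMtools 0.1.19 and CASAVA 1.8.2, with genome build TAIR10. The authors deposited 1 island table per ChIP library, giving for every island its coordinates, the reads of ChIP and of control, the fold between them, and a p-value before and after adjustment. Island starts were multiples of 200 bp. Windows below the island threshold are not listed. The tables of 8 pairs of libraries share control values (leaf with inflorescence, apex t0 with apex t2, in each replicate and mark). The 6 input samples, of apex t2 and inflorescence, were not analysed here.

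Gene bodies came from the RefSeq gene table, whose placement was checked against the islands in 110 bins of 1 Mb, all 110 best at no offset. Each island's reads were shared out by length, summed per gene body, scaled by a trimmed mean of log ratios (30% and 5% trimmed) and expressed as RPM. log2(RPM + 1) was fitted per mark with limma 3.58.1 (R 4.3.3) on stage over 8 libraries, with 4 residual degrees of freedom, trend and robust moderation, and Benjamini-Hochberg adjustment over all tested genes. The pseudocount makes log2 differences between low levels above 0 too small. Where a stage has no island, its 0 stands for any level below the island threshold, so the difference may be too large. Linear folds are printed where all 4 libraries had an island; other log2 differences depend on the pseudocount. On simulated data, 100% of 200 genes changed 4-fold were recovered for apex t0 against leaf, with 16 false calls among 17588 genes for H3K4me3 and 8 among 8623 for H3K27me3. The simulated counts had the same relative spread setting for all genes, no island threshold and no shared batch. The recovery therefore does not show how many real changes would be called here. SDs and tests cover the spread between replicates only.

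The replicate number marks a shared batch in the labels (sonication, antibody lot, library kit, sequencer). Deviations of same-numbered libraries correlated at 0.231 to 0.445 for H3K4me3 and 0.155 to 0.448 for H3K27me3, so the numbers were taken to pair the samples, and the block was an alternative fit. No 2 libraries were identical. The members and lists were chosen with earlier results of these data known. Named genes were all members, those of each list that were called (ranked by size of change), and the 3 genes most like the member with the widest range of each mark. Promoter motifs and protein identity were not analysed here.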

Additional observations from a re-analysis of the deposited data

How the results depend on the processing

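The EXPA4 calls for H3K4me3, from leaf to apex t0 and from leaf to inflorescence, held under all 16 alternatives tried. The differences were 4.28 to 8.53 and 3.56 to 7.76 (log2). EXPA4 had no leaf island, so it passed the filter only through stages where it was high, and it was chosen with these values known. That its calls held describes the fits and is no independent support. Each other call ended when at least 1 single library was left out, although the difference itself could stay nearly the same. For H3K4me3 from leaf to apex t0, leaving out 1 apex or inflorescence library gave 1.08 to 1.12 for EXPA3 and 0.97 to 1.02 for EXPA10 (log2). These 2 differences moved more when a leaf library was left out. Leaving out each library in turn gave 1 to 7 members called for H3K4me3 from leaf to apex t0 (5 with all libraries), 0 to 1 from apex t2 to inflorescence (2), and 1 to 3 from leaf to inflorescence (1). For H3K27me3 it gave 0 to 2 from leaf to apex t0 (1) and 0 to 1 from leaf to inflorescence (0). The lone library left in a stage was assumed to vary like the others. For H3K4me3 from apex t2 to inflorescence, the replicate block gave 1 member called, 1 kb either side gave 1, and admitting genes marked in at least 1 library gave 0. From leaf to inflorescence, a pseudocount of 5 RPM and islands of fold 2 or more each gave 2. For H3K27me3 from leaf to apex t0, 1 kb either side gave 0 and islands of fold 2 or more gave 2, and from leaf to inflorescence the latter gave 1. The replicate block also raised the count for H3K4me3 from leaf to apex t0 from 5 to 6 and changed no other count. The share of all genes called moved too. For H3K4me3 it was 0.53% to 17.1% from leaf to apex t0, 0% to 1.9% from apex t2 to inflorescence and 0.368% to 10.2% from leaf to inflorescence. For H3K27me3 it was 6.75% to 22.3%, 0% to 12.3% and 3.67% to 17.8%. The cause of these shifts was not tested.

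The calls of EXPA3 and EXPA10 for H3K4me3 ended when any 1 apex or inflorescence library was left out; their log2 differences over all alternatives were 0.78 to 1.43 and 0.69 to 1.32. EXPA5 lost its H3K27me3 call under 7 of 16 alternatives. Over all 36 tested differences of single members in the 3 comparisons between tissues, 576 alternative values were computed; 502 kept their direction and side of the threshold, 43 lost a call, 18 gained one and 13 changed sign. Of the gained calls, EXPA15 had 6 from leaf to apex t0 and 4 from leaf to inflorescence for H3K4me3, and EXPA8 had 2 in each for H3K27me3. The sign changes came from leaving out a library, and none of these was called. For EXPA6 and H3K4me3 the ranges over left-out libraries were -0.17 to 0.72 from leaf to apex t0, -0.09 to 0.41 from apex t2 to inflorescence and -0.12 to 0.76 from leaf to inflorescence. From leaf to inflorescence they were -0.77 to 0.03 for EXPA1 and -0.29 to 0.51 for EXPA8. For H3K27me3 from apex t2 to inflorescence they were -0.48 to 0.29 for EXPA8, -0.02 to 0.08 for EXPA9 and -0.31 to 0.38 for EXPA2, and for EXPA9 from leaf to inflorescence -0.36 to 0.08. Requiring 200 bp of the gene body left 54 of 61 cases of a member with an H3K4me3 island in a library, and 32 of 34 for H3K27me3. Depth limits what a missing island shows, most of all in replicate 1.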
